A study of Mus musculus with 9 samples.

Results

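The small extracellular vesicles (smEVs) of Bbs6-/- kidney medullary (KM) cells were compared with those of wild-type (WT) KM cells for every miRNA with a total of at least 6 counts over the 6 libraries of both lines. Of the 1164 entries in the count table, 298 met this limit and were tested. KM cells are immortalised mouse kidney medullary lines, and both groups share the immortalisation. They differ in the genotype, Bbs6 -/- against wild type, and were kept without serum for 24 h before smEVs were collected from the supernatant by differential centrifugation. Each genotype has 3 libraries and is 1 line, so an effect of Bbs6 and any other difference between the lines cannot be told apart. The table holds miRNAs and no Bbs6 transcript, so the genotype could not be checked in these libraries. The samples were described as independent smEV pellets of a line, and the p-values measure the spread between such pellets.

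Bbs6, also called Mkks, is a chaperonin-like protein that helps to assemble the BBSome, a complex that carries membrane proteins in and out of the primary cilium, and its loss causes Bardet-Biedl syndrome. A miRNA is a short RNA that guides Argonaute proteins to partly complementary sites in mRNAs, mainly through its seed near the 5′ end, and members of a family share that seed. Cells release some of their miRNAs in vesicles, where the counts describe cargo and not the level in the source cell. The epithelial miR-200 family, the growth-associated miR-21a, the let-7 family and the miR-10 miRNAs of the Hox clusters are among the miRNAs found in kidney epithelium.

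The mature sequences of the miRNAs on which the results turn are given 5′ to 3′ as in RefSeq for GRCm38.p6, with the seed (bases 2 to 8) in capitals. They were matched by name for 255 of the 298 entries (85.6%). The entries do not name an arm, so the arm printed is the one whose seed defines the family, and the count may come from the other arm. The first lines are the miR-10 pair, which moved in opposite directions.
miR-10a-5p: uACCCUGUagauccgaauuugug
miR-10b-5p: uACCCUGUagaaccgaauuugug

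The let-7 members below are the 6 that were higher in Bbs6-/- smEVs, followed by miR-98, which shares their seed and was not.
let-7a-5p: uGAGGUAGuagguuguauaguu
let-7b-5p: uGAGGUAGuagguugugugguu
let-7c-5p: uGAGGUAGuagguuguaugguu
let-7e-5p: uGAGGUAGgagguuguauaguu
let-7f-5p: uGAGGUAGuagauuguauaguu
let-7g-5p: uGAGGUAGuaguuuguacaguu
miR-98-5p: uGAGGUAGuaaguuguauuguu

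The next group holds miR-21a, the most abundant miRNA of the vesicles, miR-181a, the 1 member of its family past the test, and then the miR-99/100 and miR-125 members that differed although they share a seed.
miR-21a-5p: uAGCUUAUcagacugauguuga
miR-181a-5p: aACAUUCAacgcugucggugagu
miR-99a-5p: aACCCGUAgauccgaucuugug
miR-100-5p: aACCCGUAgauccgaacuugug
miR-125a-5p: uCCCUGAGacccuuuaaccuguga
miR-351-5p: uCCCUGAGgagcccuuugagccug

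The last group holds the abundant entries with late miRNA numbers that were lower in Bbs6-/- smEVs.
miR-5126: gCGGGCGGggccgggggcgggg
miR-6538: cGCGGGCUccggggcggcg
miR-6240: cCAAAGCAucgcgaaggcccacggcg
miR-2137: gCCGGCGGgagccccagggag

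The libraries are named by their numbers in the table, which are 2, 3 and 4 for Bbs6-/- and 1, 3 and 4 for WT, while the labels count 1 to 3 within every group. The Bbs6-/- libraries held 192654 to 423784 counts and the WT libraries 64118 to 130905, so every WT library was the shallower. Levels are TMM-scaled CPM (counts scaled to library size), and 3 counts, the most that a count of 0 is taken to allow, equal 8.89 to 15.8 CPM in Bbs6-/- and 20.2 to 39.9 CPM in WT. Bbs6-/- replicate 2 stood apart before any miRNA was tested. On log2 CPM it lay 22.3 and 20.8 from replicates 3 and 4, which lay 14.7 from each other. WT libraries lay 16.9 to 20.2 apart and libraries of different lines 23.8 to 28.0. Since CPM is relative within a library, a miRNA that is loaded more and other miRNAs that are loaded less cannot be told apart.

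The differences ran from near-complete gains of rare miRNAs to moderate shifts in the miRNAs that fill the vesicles. An adjusted p under 0.1 (edgeR's quasi-likelihood test, Benjamini-Hochberg) was reached by 45 of the 298 miRNAs (15.1%), of which 29 were higher (9.73%) and 16 lower (5.37%) in Bbs6-/- smEVs. A log2 fold change of at least 2 as well, the limit for calling a miRNA differentially loaded, was met by 12 (4.03%), with 8 higher (2.68%) and 4 lower (1.34%). The other 33 moved less than 4-fold, with 21 higher by 0.65 to 1.67 and 12 lower, at -1.94 to -0.81, on the log2 scale. Of these moderate changes, 19 of the higher and 6 of the lower miRNAs had a mean level of at least 1000 CPM. Of the 33, 6 stayed past the test whichever single library was removed (miR-10b, miR-181a, miR-21a, miR-378a, miR-5126 and miR-6538), and the other 27 lost it without Bbs6-/- replicate 3. With scaling by total counts in place of TMM the median log2 fold change of all miRNAs moved from -0.01 to -0.44, and the split became 11 higher and 27 lower (28.9% higher, against 64.4%).

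**Figure D1:**
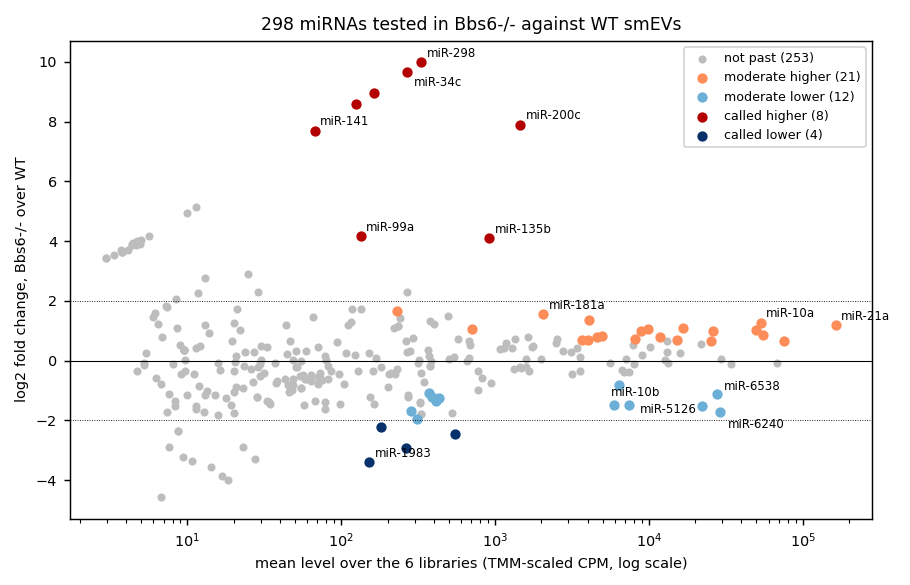
Log2 fold change of Bbs6-/- over WT (y axis) against the mean level over the 6 libraries in TMM-scaled CPM (x axis, log scale) for the 298 miRNAs, with dotted lines at a log2 fold change of 2 and -2. Grey points did not reach an adjusted p under 0.1, and the moderate changes (orange and light blue) lie mostly above 1000 CPM while the called ones (dark red and dark blue) lie mostly below it. Fitted changes of miRNAs without WT counts depend on the prior count.

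The share of miRNAs past the test grew with abundance. Among the 155 miRNAs with a mean under 100 CPM, 1 was past it, and among the 76 between 100 and 1000 CPM, 8 were higher and 10 lower. Between 1000 and 10000 CPM, 10 were higher and 3 lower of 44. Of the 23 miRNAs at 10000 CPM or more, 10 were higher and 3 lower (56.5%), and these 23 held 81.2% of the Bbs6-/- and 77.3% of the WT counts. The median standard error of the log2 fold change was 1.55 under 100 CPM and 0.23 at 10000 CPM or more, so moderate changes of rare miRNAs were not detectable at this depth.

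miR-21a, a miRNA widely linked to growth and fibrosis, was the most abundant miRNA and was 2.27-fold higher in Bbs6-/- smEVs. It had 232229, 227343 and 224909 CPM in Bbs6-/- replicates 2, 3 and 4 and 96378, 103765 and 101289 CPM in WT replicates 1, 3 and 4. The groups did not overlap and replicate 2 lay with its fellows, and the log2 fold change was 1.18 (SE 0.14, adjusted p = 0.00201, edgeR). It is encoded at chr11:86584067-86584158 (GRCm38, minus strand), where it overlaps an exon of Vmp1.

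The miR-10 pair, whose genes lie in the Hox clusters, moved in opposite directions although their 5p forms share a seed and differ only by U12A (position from the 5′ end, the base of miR-10a first). miR-10a had 74082, 72935 and 79731 CPM in Bbs6-/- against 20934, 44702 and 28651 CPM in WT, a log2 fold change of 1.27 (SE 0.26, adjusted p = 0.0199, edgeR). miR-10b had 2737, 4342 and 4816 CPM in Bbs6-/- against 7948, 14515 and 10455 CPM in WT, a log2 fold change of -1.47 (SE 0.29, adjusted p = 0.0177, edgeR). In neither did the groups overlap, and the directions held with total counts, at 0.86 and -1.90. The gene of miR-10a is intergenic at chr11:96317165-96317274 (plus strand), and that of miR-10b lies at chr2:74726070-74726137 (plus strand) in introns of Hoxd3 and Hoxd4. Of the 6 Hox cluster miRNAs tested, miR-10a was higher, miR-10b and miR-615 lower, and miR-196a (0.43, adjusted p = 0.32, edgeR), miR-196b and miR-196a-1 did not pass the test. Of all 298 miRNAs, 9.73% were past it as higher and 5.37% as lower.

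The let-7 family, known for restraining growth genes in differentiated cells, held 6 of the 21 moderate gains. Of its 13 entries tested, 6 (beside 9.73% of all 298) were past the test as higher and none as lower, with a median log2 fold change of 0.87 beside -0.01 for all miRNAs. Together the entries summed to 246235, 399328 and 424107 CPM in Bbs6-/- replicates 2, 3 and 4 and to 213810, 193235 and 214598 CPM in WT, so replicate 2 lay nearest to WT. Both let-7a-1 and let-7c-2, which have identical counts, enter the 13 entries, their median and these sums. With total counts the family's median was 0.42, none of its members was past the test as higher, and miR-98 was past it as lower.

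The member with the smallest adjusted p was let-7a. It had 42003, 76445 and 80217 CPM in Bbs6-/- against 33721, 32737 and 31891 CPM in WT, a log2 fold change of 1.01 (SE 0.24, adjusted p = 0.0374, edgeR). Its groups did not overlap, with replicate 2 between WT and the other Bbs6-/- libraries. let-7f, the most abundant member, had 70222, 102140 and 106778 CPM against 56250, 57092 and 63580 CPM (0.66, SE 0.19, adjusted p = 0.0614, edgeR).
let-7c had 39757, 82761 and 91436 CPM in Bbs6-/- against 40792, 39465 and 37061 CPM in WT (0.87, SE 0.28, adjusted p = 0.0848, edgeR). let-7b had 17023, 42763 and 44902 CPM against 19007, 15183 and 18136 CPM (1.00, SE 0.33, adjusted p = 0.0865, edgeR). In both, replicate 2 fell within the WT range, and they were the 2 of the 21 moderately higher miRNAs whose groups overlapped. let-7e (1.06, adjusted p = 0.0498) and let-7g (0.65, adjusted p = 0.0614, both by edgeR) did not overlap.

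The members outside the test differed among themselves. let-7i had 28983, 23856 and 25568 CPM against 19977, 11787 and 21443 CPM (0.56, adjusted p = 0.193, edgeR). let-7d had 9487, 18304 and 20261 CPM against 10434, 9832 and 10327 CPM (0.65, adjusted p = 0.183, edgeR). In let-7d replicate 2 was below all WT libraries. miR-98, with the same seed, had 2980, 2532 and 2519 CPM against 3230, 3209 and 4610 CPM (-0.46, adjusted p = 0.254, edgeR). Relative to the 5p form of let-7a, the base differences are A19G in let-7c, A17G and A19G in let-7b, U9G in let-7e, G12A in let-7f, and G12U and U18C in let-7g, all outside the seed. Reads of such near-identical miRNAs can be assigned to the wrong member, so the division between them is uncertain. The same limit applies to the 5p forms of the miR-10 pair and of miR-99a and miR-100, which differ by 1 base within each pair.

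**Figure D2:**
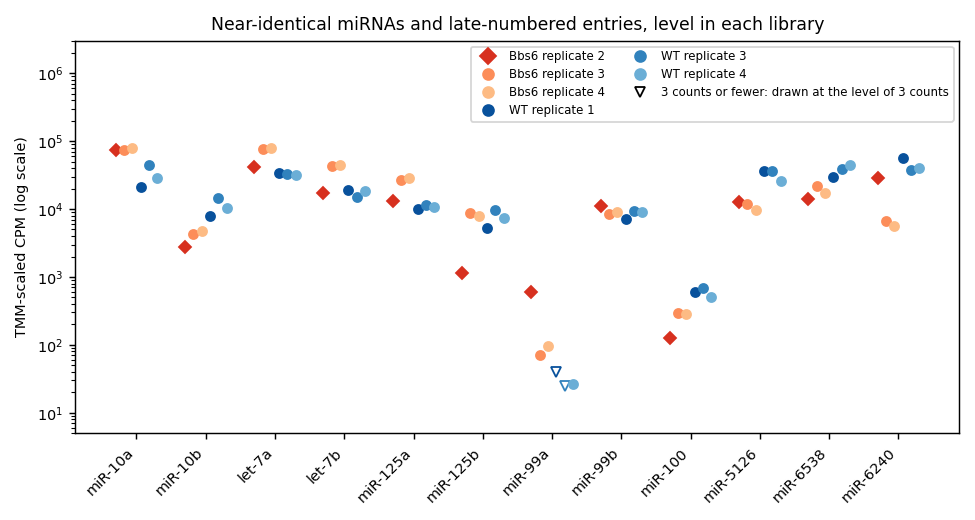
Level in each library (y axis, TMM-scaled CPM on a log scale) of 9 miRNAs from the miR-10, let-7, miR-125 and miR-99/100 families and of 3 late-numbered entries, with Bbs6-/- libraries in red and orange (replicate 2 as a diamond) and WT in blue. Open triangles mark libraries with 3 counts or fewer. The miR-10 pair moves in opposite directions, and in let-7a, let-7b and miR-125a replicate 2 lies below the other Bbs6-/- libraries.

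miR-181a, a miRNA best known from lymphocytes and also found in epithelia, had 2547, 3147 and 3497 CPM in Bbs6-/- against 1090, 994 and 1046 CPM in WT. The groups lay well apart, with a log2 fold change of 1.55 (SE 0.22, adjusted p = 0.0032, edgeR). Of the 5 miR-181 entries tested, the other 4 did not pass the test (15.1% of all 298 miRNAs did), among them miR-181b at 0.74 (adjusted p = 0.115, edgeR). The family's median was 1.11, and 0.74 with total counts. RefSeq gives the 5p form of miR-181a for 2 genes, on chromosomes 1 and 2, which the count does not separate.

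The miR-99/100 and miR-125 families moved in both directions within shared seeds. miR-125a had 13189, 26778 and 28224 CPM in Bbs6-/- against 10022, 11273 and 10711 CPM in WT (1.09, SE 0.27, adjusted p = 0.0417, edgeR), with replicate 2 nearest to WT. miR-351, which shares its seed, was lower at 232, 232.3 and 251.9 CPM against 425, 521 and 560 CPM (-1.07, adjusted p = 0.0614, edgeR). miR-125b, the remaining entry with that seed, had 1150, 8725 and 8019 CPM against 5277, 9669 and 7303 CPM and did not pass the test (-0.31, adjusted p = 0.806, edgeR).
In miR-125b replicate 2 was the lowest of the 6 libraries, while replicates 3 and 4 lay within the WT range. miR-99a had 601, 71.2 and 94.8 CPM in Bbs6-/- and 0, 8.15 and 27 CPM in WT, from 165 against 5 counts. The pooled ratio was 14.4 (95% exact interval of the counting error alone 6.04 to 44.9, edgeR's adjusted p = 0.0498), and here replicate 2 was the highest, with 114 of the 165 counts. Without replicate 2 the log2 fold change of miR-99a was 2.56 (adjusted p = 0.0891), against 4.15 with it, and without WT replicate 4 it was 5.45 (adjusted p = 0.0806, all by edgeR). miR-100, which differs from miR-99a by U16A, had 126.6, 296 and 281.5 CPM against 598, 692 and 499 CPM (-1.34, SE 0.39, adjusted p = 0.064, edgeR).

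Neighbouring genes did not always share a direction. On chromosome 17, miR-99b, let-7e and miR-125a lie side by side in Spaca6, and while let-7e and miR-125a were higher, miR-99b had 11217, 8410 and 9154 CPM against 7045, 9384 and 8983 CPM (0.18, adjusted p = 0.671, edgeR). On chromosome X, let-7f-2 lies beside miR-98, but let-7f has a second gene on chromosome 13 and its count does not tell them apart. On chromosome 9, miR-100 and miR-125b-1 were both lower, and both lie in introns of 3110039I08Rik. miR-501 and miR-532, in introns of the chloride transporter gene Clcn5, were lower as well, at -1.22 and -1.25 (adjusted p = 0.0605 for each, edgeR).

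The other abundant miRNAs with moderate gains came from several families. With total counts, 3 of the 21 moderately higher miRNAs, miR-10a, miR-181a and miR-21a, kept an adjusted p under 0.1 (edgeR), and the other 18 did not, whereas all 12 moderately lower miRNAs stayed past it. miR-26a and miR-26b, growth-restraining miRNAs hosted by the Ctdsp phosphatase genes, were higher by 0.80 (adjusted p = 0.0417) and 0.70 (adjusted p = 0.043, both by edgeR), and they are the 2 tested entries with their 5p seed. miR-26b had 5073, 4795 and 5109 CPM in Bbs6-/- against 2924, 3144 and 3138 CPM in WT, with little spread in either line. miR-26a had 11966, 15655 and 17226 CPM against 7789, 9709 and 8261 CPM. Neither overlapped.
miR-93, of the miR-106b-25 cluster in Mcm7, had 10094, 10519 and 9836 CPM in Bbs6-/- against 6367, 5914 and 6054 CPM in WT (0.73, SE 0.16, adjusted p = 0.03, edgeR). It was the 1 of 10 tested entries of the miR-17-92 and related clusters to pass the test, beside 15.1% of all 298 miRNAs. Within its own cluster miR-25 stood at 0.06 (adjusted p = 0.882) and miR-106b at 0.42 (adjusted p = 0.42, both by edgeR). miR-92a, the most abundant of the 10, had 16554, 17881 and 17858 CPM against 14541, 15159 and 13755 CPM (0.27, adjusted p = 0.345, edgeR).

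miR-29a, of the family that targets collagens, had 7974, 14768 and 12992 CPM in Bbs6-/- against 4998, 6199 and 6655 CPM in WT (1.00, SE 0.25, adjusted p = 0.0417, edgeR). The other 3 tested entries of the miR-29 family did not pass the test, which 15.1% of all 298 miRNAs did. miR-30d, of a family abundant in kidney epithelium, had 15973, 20447 and 20187 CPM against 12547, 11827 and 10813 CPM (0.69, SE 0.17, adjusted p = 0.0417, edgeR). It was the 1 of 7 tested miR-30 entries past the test, beside 15.1% of all 298 miRNAs. The family's most abundant member, miR-30a, had 32864, 29812 and 27207 CPM against 29893, 29772 and 27187 CPM (0.05, adjusted p = 0.894, edgeR).

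miR-7a had 3723, 6751 and 7006 CPM in Bbs6-/- against 3283, 1214 and 2342 CPM in WT, with a wide spread in both lines (1.36, SE 0.38, adjusted p = 0.0583, edgeR). miR-191 had 4693, 7163 and 7023 CPM against 3243, 3804 and 3665 CPM (0.82, SE 0.22, adjusted p = 0.0514, edgeR). In both, replicate 2 was the Bbs6-/- library nearest to WT.
miR-22 had 6771, 5481 and 5150 CPM in Bbs6-/- against 3562, 2362 and 4212 CPM in WT (0.78, SE 0.25, adjusted p = 0.0848, edgeR). miR-23b had 3681, 4687 and 5251 CPM against 2366, 2998 and 3071 CPM (0.69, SE 0.22, adjusted p = 0.0834, edgeR). It was the 1 of 7 tested entries of the miR-23/27/24 clusters past the test, beside 15.1% of all 298 miRNAs. The most abundant of these entries, miR-24 and miR-23a, stood at -0.08 and 0.01 (adjusted p = 0.894 and 0.991, edgeR). Below 1000 CPM, miR-340 was higher by 1.07 (adjusted p = 0.064) and miR-335, from an intron of the imprinted gene Mest, by 1.67 (adjusted p = 0.077, both by edgeR). For miR-335, replicate 2 with 617 CPM was well above replicates 3 and 4 with 224.8 and 213 CPM, and without it the change was 0.99 (adjusted p = 0.121, edgeR).

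**Figure D3:**
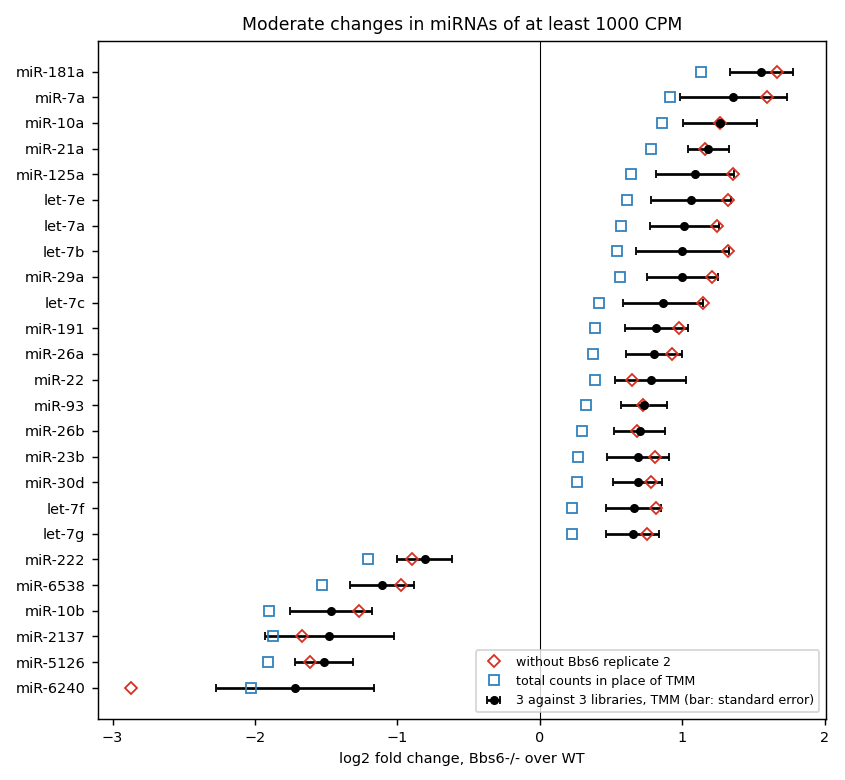
Log2 fold change of Bbs6-/- over WT (x axis) for the 25 miRNAs with a moderate change and a mean of at least 1000 CPM (y axis), where black points are the comparison of 3 with 3 libraries with TMM scaling and bars are standard errors. Red diamonds leave out Bbs6-/- replicate 2 and blue squares use total counts in place of TMM. No miRNA changes sign, and total counts shift all to the left.

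Of the 6 moderate losses with a mean of at least 1000 CPM, 4 were in entries with late numbers. miR-5126 had 12825, 11849 and 9687 CPM in Bbs6-/- against 35874, 36598 and 25628 CPM in WT, 2.85-fold lower (log2 fold change -1.51, SE 0.20, adjusted p = 0.00248, edgeR). miR-6538 had 13822, 21657 and 17223 CPM against 29547, 39188 and 45012 CPM (-1.11, SE 0.23, adjusted p = 0.0199, edgeR). In both, all Bbs6-/- libraries lay below all WT libraries. miR-5126 is annotated at chr1:84695839-84695915 (plus strand), opposite an exon of Dner, and miR-6538 at chr12:26414901-26415010 (minus strand) in an intron of Rnf144a.
miR-6240 had 28477, 6766 and 5553 CPM in Bbs6-/- against 56476, 37958 and 39828 CPM in WT (-1.72, SE 0.56, adjusted p = 0.0848, edgeR). Replicate 2 lay closer to WT than to its fellows, and without it the change was -2.87 (adjusted p = 1.06e-05, edgeR). miR-2137 had 3871, 3072 and 2383 CPM against 16136, 5026 and 4860 CPM (-1.48, SE 0.45, adjusted p = 0.0728, edgeR), where WT replicate 1 stood far above the other WT libraries, and without that library the change was -0.65 and no longer past the test. miR-6240 is intergenic at chr5:114851948-114852064 and miR-2137 lies in an intron of Zfp185 at chrX:72992079-72992144 (both plus strand).

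Of the 473 entries numbered 5000 or higher, 32 were tested, of which 4 were lower and none higher by the adjusted p of edgeR, beside 5.37% lower and 9.73% higher of all 298. At an unadjusted p under 0.05, 4 were lower and 0 higher, and with DESeq2 5 and 0. Their sum was 59401, 44681 and 36180 CPM in Bbs6-/- and 131109, 116977 and 115834 CPM in WT. All Bbs6-/- libraries thus held less of these entries than all WT libraries, with replicate 2 the nearest to WT. Most of each sum came from miR-6240, miR-6538 and miR-5126, already described, so the sum says little about the rest. Of the 32 entries, 12 had a positive log2 fold change. Their median log2 fold change was -0.43, beside -0.01 for all 298. Another abundant member, miR-5099, stood at 0.06 (adjusted p = 0.93, edgeR). The RefSeq sequences of the 5 lower entries numbered 2000 or higher, found after the values were seen, had a median G+C content of 85.7%, beside 51.1% for the 10 other lower miRNAs with a sequence, 47.7% for the higher ones and 48.3% for those not past the test. The 5 ranged from 55.0% to 100%, and those not past the test from 23.8% to 78.9%. Late-numbered entries not past the test were not set apart. What part G+C content has in these counts was not tested.

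The other 8 moderately lower miRNAs were miR-10b, miR-222, miR-100, miR-351, miR-361, miR-378a, miR-501 and miR-532. miR-222, of a pair that promotes proliferation, had 5147, 4248 and 4513 CPM in Bbs6-/- against 9424, 7738 and 7215 CPM in WT (-0.81, SE 0.19, adjusted p = 0.0374, edgeR). Its partner miR-221, with the same seed, had 5052, 6410 and 6419 CPM against 7855, 7844 and 7566 CPM. Its groups did not overlap either, but it did not pass the test (-0.38, adjusted p = 0.249, edgeR).
Under 1000 CPM, miR-378a was lower with a log2 fold change of -1.94 (adjusted p = 0.0267, edgeR). miR-361, from an intron of Chm, was lower with -1.68 (adjusted p = 0.0391, edgeR). In all 12 moderately lower miRNAs the groups did not overlap, as was the case for 19 of the 21 higher ones. Over all 298 miRNAs, 17.4% had all Bbs6-/- libraries above and 11.7% below all WT libraries.

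Among the 20 most abundant miRNAs, 12 were past the test and 8 were not. Besides let-7i, let-7d, miR-30a and miR-92a these were miR-182, miR-183, miR-31 and miR-24. miR-182, of a cluster of sensory and epithelial miRNAs, had 56458, 65252 and 78575 CPM in Bbs6-/- against 64451, 66891 and 78354 CPM in WT (-0.07, SE 0.18, adjusted p = 0.875, edgeR). miR-183 of the same cluster stood at -0.11 (SE 0.23, adjusted p = 0.829, edgeR). For both the groups overlapped.

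The miRNAs past the 4-fold limit were rarer. In WT, miR-298, miR-296, miR-34b, miR-34c and miR-141 had no count in any library, so their folds are lower bounds against 3 counts per library. miR-298 and miR-296, neighbours at chr2:174267504-174267585 and chr2:174267047-174267125 (minus strand, intergenic) near the imprinted Gnas locus, were at least 23.5-fold and at least 11.5-fold higher. miR-298 had 617, 674 and 693 CPM in the 3 Bbs6-/- libraries and was the most even of the gains (adjusted p = 0.000555, edgeR). miR-296 had 216, 352 and 406 CPM (adjusted p = 0.00248, edgeR).
miR-34b and miR-34c, of a family that acts with miR-449 in motile ciliogenesis, are encoded side by side at chr9:51103562-51103645 and chr9:51103034-51103110 (minus strand), opposite an intron of Btg4. miR-34c had 174, 764 and 661 CPM, a gain of at least 18.9-fold (edgeR, adjusted p = 0.00344), and miR-34b 148, 333 and 269.7 CPM, a gain of at least 8.88-fold (edgeR, adjusted p = 0.00334). miR-34a, was detected in all 6 libraries, with 527, 554 and 605 CPM against 160, 130 and 418 CPM (1.23, adjusted p = 0.141, edgeR).

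The epithelial miR-200 family has a cluster of miR-200c and miR-141 on chromosome 6 and another of miR-200a, miR-200b and miR-429. miR-200c had 169, 4005 and 4570 CPM in Bbs6-/- and 13.3, 16.3 and 6.75 CPM in WT, from 2643 against 4 counts (adjusted p = 0.00486, edgeR). The pooled ratio was 288 (95% exact interval of the counting error alone 112 to 1058). miR-141 had 5.27, 213.5 and 184 CPM and no WT count, a gain of at least 4.76-fold (edgeR, adjusted p = 0.0608). In replicate 2 both were far below replicates 3 and 4, and miR-141 was not told apart from 0 there.
The second cluster was present in both lines. miR-200b had 10816, 12254 and 12132 CPM in Bbs6-/- against 8095, 8561 and 8774 CPM in WT (0.47, adjusted p = 0.11, edgeR). miR-200a had 2600, 3420 and 3535 CPM against 1356, 2069 and 2288 CPM (0.74, adjusted p = 0.11, edgeR). In both the groups did not overlap.

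miR-135b, a miRNA known to target the Wnt regulator Apc, had 701, 2132 and 2377 CPM in Bbs6-/- against 26.6, 97.7 and 162 CPM in WT (4.10, SE 0.63, adjusted p = 0.00365, edgeR). The 4 miRNAs called lower were miR-1983, miR-6239, miR-615 and miR-125b-1. miR-1983 had 52.7, 18.7 and 8.89 CPM in Bbs6-/- against 452, 203.6 and 175 CPM in WT (-3.40, SE 0.72, adjusted p = 0.0243, edgeR). miR-6239 had 301, 116 and 94.8 CPM against 1675, 676 and 418 CPM (-2.44, SE 0.62, adjusted p = 0.0417, edgeR), so replicate 2 was again the nearest to WT. Without replicate 2 the change was -4.27 for miR-1983 (adjusted p = 0.00101) and -3.11 for miR-6239 (adjusted p = 0.00358, both by edgeR), and without WT replicate 1 that of miR-6239 was -1.66 (adjusted p = 0.167, edgeR).
miR-615, from the Hoxc cluster, had 0, 82.4 and 94.8 CPM in Bbs6-/- against 425, 513 and 472 CPM in WT (-2.93, SE 0.84, adjusted p = 0.0608, edgeR). miR-125b-1, a locus-numbered entry that matches the 3p arm in RefSeq, had 21.1, 97.4 and 74.1 CPM against 213, 155 and 533 CPM (-2.20, SE 0.66, adjusted p = 0.0663, edgeR). For these last 2 it was replicates 3 and 4 that lay nearer to WT. Of the 12, 7 stayed past the test whichever library was removed, and miR-99a, miR-141, miR-6239, miR-615 and miR-125b-1 lost it without WT replicate 1, among others. Without WT replicate 4 the change of miR-125b-1 was -1.58 (adjusted p = 0.203, edgeR).

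**Figure D4:**
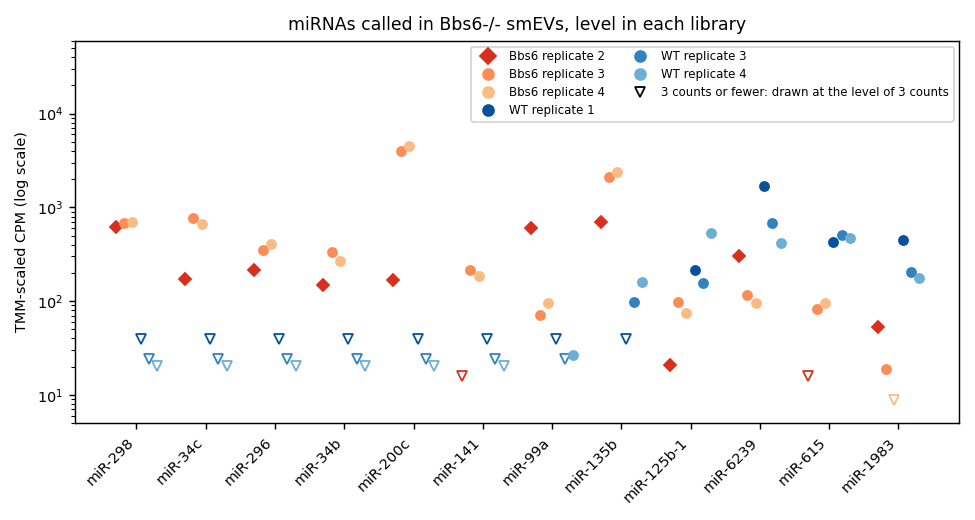
Level in each library (y axis, TMM-scaled CPM on a log scale) of the 12 miRNAs called in Bbs6-/- smEVs, ordered by log2 fold change, with Bbs6-/- libraries in red and orange (replicate 2 as a diamond) and WT in blue. Open triangles mark libraries with 3 counts or fewer, drawn at the level of 3 counts. In miR-200c and miR-141 replicate 2 lies far below the other Bbs6-/- libraries.

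Replicate 2 was compared with replicates 3 and 4 over the 82 miRNAs with a mean of at least 500 CPM. Its log2 CPM differed from their mean by more than 1 for 12 miRNAs, higher for 2 and lower for 10, whereas replicates 3 and 4 differed by more than 1 for none. The median absolute gap was 0.38, against 0.13 between replicates 3 and 4. The 8 largest gaps were those of miR-200c (-4.58), miR-125b (-2.85), miR-5119 (-2.69), miR-6240 (2.21), miR-135b (-1.67), miR-6239 (1.43), let-7b (-1.36) and miR-196b (-1.35).
miR-5119 had 42.2, 378 and 287 CPM in Bbs6-/- against 1608, 228 and 621 CPM in WT, and its groups overlapped (-1.77, adjusted p = 0.228, edgeR). miR-196b had 1688, 3945 and 4739 CPM against 2778, 2680 and 2956 CPM, so replicate 2 was below and its fellows above all WT libraries. Of the 21 moderately higher miRNAs, replicate 2 was nearer to WT than the mean of replicates 3 and 4 in 17, and in 1 of these, let-7b, it was on the other side of the WT mean. In miR-21a, miR-10a, miR-93 and miR-26b it differed from them by 0.01 to 0.04 in either direction with TMM scaling.

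**Figure D5:**
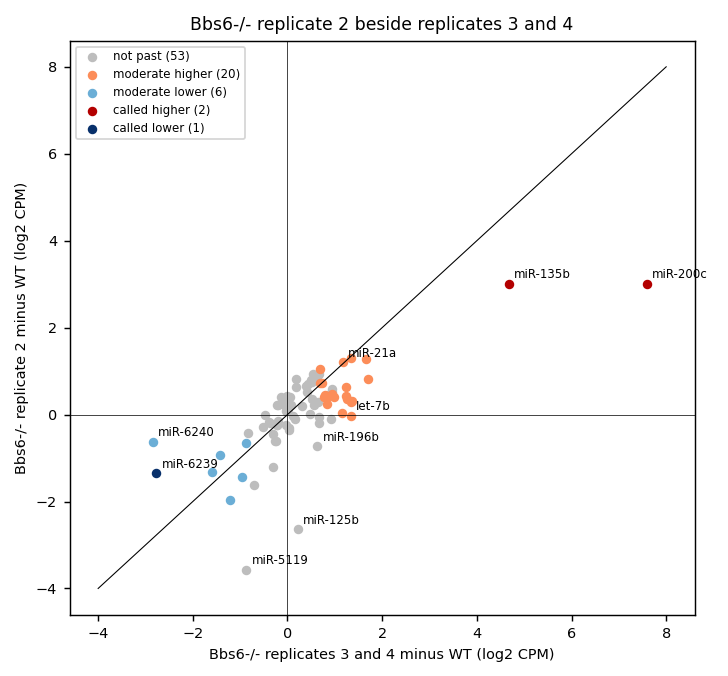
Difference from the WT mean in log2 CPM for Bbs6-/- replicate 2 (y axis) and for the mean of replicates 3 and 4 (x axis) over the 82 miRNAs with a mean of at least 500 CPM, coloured by the outcome of the test, with the line of equal difference. Most moderately higher miRNAs lie below the line, and miR-200c and miR-125b lie farthest from it.

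Without replicate 2, 67 miRNAs were past the adjusted p of edgeR, 42 higher and 25 lower, and 44 of the 45 were among them. let-7d was then higher by 0.91 (adjusted p = 0.000726, edgeR) and miR-27b by 0.63 (adjusted p = 0.0119, edgeR). miR-200a with 0.85 (adjusted p = 0.0316), miR-200b with 0.51 (adjusted p = 0.0279) and miR-196b with 0.62 (adjusted p = 0.0385, all by edgeR) were also among the 23 gained. miR-335 was the 1 that no longer passed. Leaving out any other library lowered the count instead. Past the test were 14 without replicate 3, 9 higher and 5 lower, and 24 without replicate 4. Without WT replicates 1, 3 and 4 there were 21, 26 and 22.

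Markers of other cell types were low in both lines. The epithelial miR-200 family summed to 15905 to 22166 CPM in Bbs6-/- and 10926 to 12493 CPM in WT. Mesenchymal miRNAs, of which miR-145a, miR-145b and miR-214 had no count, summed to 20.7 to 86.2 CPM in Bbs6-/- and 97.7 to 189 CPM in WT, with miR-143 and miR-199a the most abundant (-1.40 and -2.37, adjusted p = 0.266 and 0.498, edgeR). Blood and liver miRNAs summed to 94.8 to 161 CPM and 209 to 372 CPM, with miR-142a at no count, miR-486a at -0.90 and miR-486b, an entry with identical counts. These lists had 3 and 5 tested entries. Neither had a member past the adjusted p of edgeR or DESeq2, beside 15.1% of all 298 miRNAs in edgeR. All of these entries had means under 100 CPM, where 1 of 155 miRNAs passed. At an unadjusted p under 0.05 by edgeR, 0 and 1 were lower. Both sums were higher in every WT library than in every Bbs6-/- library, but entries with identical counts were each added. These are miR-199a and miR-199b in the first sum and the miR-486 pair in the second. For miR-143 alone the groups overlapped, at 36.9, 71.2 and 20.7 CPM in Bbs6-/- against 146, 48.9 and 148 CPM in WT. The part of these lists in the results above was not tested.
Of the kidney epithelial miRNAs, the miR-30 family was abundant, at 60255 to 63877 CPM in Bbs6-/- and 51397 to 58419 CPM in WT. The others were scarce, at 287 to 435 CPM in Bbs6-/- and 79.8 to 293 CPM in WT. Among these miR-194 stood at 1.31 (adjusted p = 0.372) and miR-192 at 0.62 (adjusted p = 0.681, both by edgeR). The miR-15/16 family, which restrains the cell cycle, had 6 tested members and a median of -0.27, with miR-16 at -0.34 and miR-15b at -0.21 (adjusted p = 0.458 and 0.671, edgeR). The 19 tested Sfmbt2-type entries had a median of 0.30, and -0.15 with total counts, with miR-466i at -1.44 (adjusted p = 0.28) and miR-467a at 0.03 (adjusted p = 0.994, both by edgeR). Among them miR-466a, miR-466b, miR-466c, miR-466e and miR-466p have identical counts. Apart from miR-466i no mean exceeded 29.9 CPM, beside 20.2 to 39.9 CPM for 3 counts in WT. Leaving the miR-30 family aside, none of these 3 lists had a member past the adjusted p of edgeR or DESeq2 or at an unadjusted p under 0.05. Of all 298 miRNAs, 15.1% were past the adjusted p of edgeR. Of the 46 Dlk1-Dio3 entries, 40 had no count and 0 reached 6 counts.

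The miRNAs past the test were set beside the Bbs4-/- smEVs, from another KM line that lacks a BBSome subunit, in a direct contrast over all 9 libraries, so that the shared WT libraries did not enter the difference. Of the 309 miRNAs in that contrast, 25 had an adjusted p under 0.1 by edgeR (8.09%). Of the 45, 10 did, namely 4 of the 21 moderately higher, 2 of the 12 moderately lower, 3 of the 8 called higher and 1 of the 4 called lower. The 45 were picked with the same Bbs6-/- libraries that enter this contrast, so their count and the 8.09% are not like for like. miR-181a was 0.96 higher on the log2 scale in Bbs6-/- than in Bbs4-/- smEVs (SE 0.21, adjusted p = 0.015, edgeR). For miR-21a the difference was 0.21 (SE 0.17, adjusted p = 0.643, edgeR), for miR-10a 0.23 (SE 0.27, adjusted p = 0.757, edgeR) and for miR-5126 -0.40 (SE 0.23, adjusted p = 0.414, edgeR).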

How the data were processed

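Small RNA from 3 smEV pellets each of Bbs6-/- and WT KM cells was analysed, with 3 Bbs4-/- libraries in the direct contrast. The authors trimmed adapters with cutadapt (version 1.9 per the submitters' processing notes), removed low-quality reads, collapsed identical reads with their unique molecular identifiers, and counted reads per miRNA with miRDeep2, keeping the largest count of repeated entries. The deposited values are raw counts, not normalized. The genome build and miRNA release of the counting step are not given in the sources used here, though GRCm38 stands in the notes. A count of 0 allows up to 3 counts, which covers counting error only.

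Counts were tested in R 4.3.3 with edgeR 4.0.16 (TMM, quasi-likelihood test, Benjamini-Hochberg), for the mutant contrast with at least 9 counts over 9 libraries. Standard errors were derived from the fitted change and its F statistic. Log2 CPM used a prior count of 2. DESeq2 1.42.0 was an alternative, as were other scalings, filters, thinning to 64118 counts (20 draws) and leaving out libraries. Named were all miRNAs past an adjusted p of 0.1, the 20 most abundant, the 8 largest gaps of Bbs6-/- replicate 2, and from 18 lists the members past the test and the 2 most abundant. The members and lists were chosen with earlier results of these data known. The test was checked on simulated counts. Positions are from GENCODE vM21. Columns were taken as replicates of the genotype in their name, since their numbers differ from the labels. No per-sample column was left out.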

Additional observations from a re-analysis of the deposited data

Results flagged for a closer look

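The direct contrast of Bbs6-/- with Bbs4-/- smEVs over 9 libraries gave an adjusted p under 0.1 (edgeR's quasi-likelihood test) for 10 of the 45 miRNAs past that limit against WT. These are differences between 2 lines, and mutation and line cannot be told apart. The 45 were picked with the same Bbs6-/- libraries that enter this contrast. Values are mean CPM of 3 libraries each and the log2 difference of Bbs6-/- minus Bbs4-/-. miR-34c had 506 CPM in Bbs6-/- and 43.7 CPM in Bbs4-/- (3.55, adjusted p = 0.0108, edgeR). miR-34b had 239 and 38.1 CPM (2.61, adjusted p = 0.0147, edgeR). miR-335 had 351 and 49.4 CPM (2.78, adjusted p = 0.0108, edgeR), with its Bbs6-/- mean raised by replicate 2. miR-298 had 643 and 1645 CPM (-1.35, adjusted p = 0.0117, edgeR).

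The others lay closer. miR-181a had 2967 and 1526 CPM (0.96, adjusted p = 0.015, edgeR). let-7g had 29945 and 19398 CPM (0.63, adjusted p = 0.0623, edgeR). miR-29a had 11443 and 6791 CPM (0.75, adjusted p = 0.0998, edgeR). miR-100 had 225 and 503.2 CPM (-1.15, adjusted p = 0.0978, edgeR). miR-125b-1 had 60.8 and 203.9 CPM (-1.71, adjusted p = 0.0998, edgeR), and miR-501 had 229 and 460.1 CPM (-1.01, adjusted p = 0.0998, edgeR).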

How the results depend on the processing

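No miRNA past the test changed sign under any alternative, and 13 of the 45 stayed past an adjusted p of 0.1 in every alternative that tested them: miR-10b, miR-135b, miR-181a, miR-1983, miR-200c, miR-21a, miR-296, miR-298, miR-34b, miR-34c, miR-378a, miR-5126 and miR-6538. The counts with the 4-fold limit were 8 higher and 4 lower, and without it 29 and 16. With total counts, 9 were lower with the limit and 11 higher and 27 lower without it. At an adjusted p of 0.05, 2 were lower with the limit and 18 higher and 8 lower without it. Leaving out 1 library gave 6 to 10 higher and 2 to 8 lower with the limit, and 9 to 42 higher and 5 to 25 lower without it. Past the test were 14 without Bbs6-/- replicate 3, 24 without Bbs6-/- replicate 4, and 21, 26 and 22 without WT replicates 1, 3 and 4, against 67 without Bbs6-/- replicate 2. The causes were not tested, though each such comparison has fewer libraries. DESeq2 gave 57 in all, no filter 61, filterByExpr 44, and thinning to the smallest library 20 higher and 18 lower. The columns share the numbers 3 and 4. The deviations of same-numbered libraries correlated at -0.28 and -0.10 over the miRNAs with a mean of at least 100 CPM. With so few libraries per line, these values cannot decide whether libraries of the same number belong together. Outside 1 alternative fit, the numbers are used here only to name samples. In that fit, with the number as a replicate block, 14 were higher and 7 lower with the limit and 42 and 17 without it. Numbers 1 and 2 have 1 library each, so only the libraries numbered 3 and 4 inform the difference between the lines there.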
